A study of Mus musculus with 18 samples.

Results

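Cytosolic ribosomal protein genes were followed in microglia, the resident macrophages of the brain, whose donor mice carried either the Chd8 knockout (KO) or the wild-type (WT) genotype, per the labels. Members were the protein-coding genes whose symbols name a protein of the small subunit (Rps) or large subunit (Rpl), together with Rplp0, Rplp1, Rplp2, Rpsa and Fau. This gave 85 of the 55414 genes listed, 52 of the large subunit and 33 of the small one. Another 6 genes with such a symbol, Rps3a2, Rps3a3, Rps4l, Rps12l1, Rpl6l and Rpl32l, are not annotated as protein-coding and were left out. There were 18 libraries, 4 from KO and 4 from WT females and 5 from KO and 5 from WT males, with no treatment given and no age stated in the labels. The assay was MARS-seq adapted to bulk RNA, in which polyadenylated 3' ends are captured and a unique molecular identifier (UMI) is put on each molecule. The labels do not say which part of Chd8 was deleted, in which cells or on how many copies, nor whether each library came from a separate animal, so p-values measure the spread between these libraries, which may be technical. Libraries are named by their replicate numbers, and the prefix HX in their labels is not explained.

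Chd8, the targeted gene, encodes a chromatin remodeler. Its level in female KO libraries was 139, 116, 117 and 121 CPM (UMI counts scaled to the same library total), against 186, 132, 181 and 164 CPM in female WT. In males it was 102, 97.4, 116, 96.4 and 109 CPM in KO and 167, 156, 159, 135 and 143 CPM in WT. The log2 fold change was -0.44 ± 0.12 (SE) in females, which did not pass (edgeR quasi-likelihood test, adjusted p = 0.0547), and -0.54 ± 0.10 in males, which did (adjusted p = 0.00171). A 3' tag outside the deleted part checks nothing about the deletion, and the labels do not place that part. Libraries held 435838 to 9149144 UMIs, and female KO 33 and female WT 34 were the 2 under 500000. Summed CPM of 9 microglial markers lay at 40781 to 44214 CPM for KO females and 37160 to 39253 CPM for WT females. For males it lay at 37890 to 43306 CPM in KO and 41073 to 45320 CPM in WT. The labelled cell type was thus borne out by its defining genes in every group, though these sums do not measure purity. Beside them, 8 neutrophil markers summed to 15573 CPM in female WT 30 and 7726 CPM in female WT 34.

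A ribosome is built from a small subunit, which reads the mRNA, and a large subunit, which joins amino acids, and each protein is normally present once per subunit apart from the paired stalk proteins. Cells therefore make ribosomal proteins in matched amounts, and their mRNAs are among the most abundant in a cell. In mammals most of these mRNAs begin with a C followed by a run of pyrimidines, the terminal oligopyrimidine tract, through which mTOR signalling and the protein Larp1 control their translation and stability. Growing and dividing cells are known to raise ribosome production, while microglia in the healthy adult brain divide slowly.

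Start sites were read from RefSeq promoters on GRCm38.p6 for 65 of the 85 members, while 20 had no entry. A start that is a C followed by at least 4 further C or T on the sense strand was found in 14 of the 65, or 21.5%, against 813 of 27025 genes, or 3.01%, with the same table. Within 20 bases on either side of the annotated start such a run was found in 51 members, or 78.5%, against 49.9% of all genes, so annotated starts need not be the exact starts in these cells. The 30-base windows below are shown for members on which later results turn, 15 bases before the start and 15 from it, 5' to 3' on the gene's strand. Capitals mark an unbroken run of at least 5 C or T that covers the start, and windows without capitals have none.
Rpl28, chr7:4792950-4792979, plus strand: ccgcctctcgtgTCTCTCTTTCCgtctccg
Fau, chr19:6057932-6057961, plus strand: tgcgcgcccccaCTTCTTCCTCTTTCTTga
Rps15a, chr7:118116133-118116162, minus strand: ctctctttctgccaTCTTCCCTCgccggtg
Rps27, chr3:90213634-90213663, minus strand: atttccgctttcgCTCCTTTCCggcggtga
Rps10, chr17:27635230-27635259, minus strand: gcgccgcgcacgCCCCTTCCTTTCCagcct
Rplp0, chr5:115559452-115559481, plus strand: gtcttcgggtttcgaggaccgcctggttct
Rps13, chr7:116334176-116334205, minus strand: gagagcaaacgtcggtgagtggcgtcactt
Rpl41, chr10:128549154-128549183, minus strand: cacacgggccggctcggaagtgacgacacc
Rps4x, chrX:102189377-102189406, minus strand: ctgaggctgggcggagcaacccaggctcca
Rps25, chr9:44407699-44407728, plus strand: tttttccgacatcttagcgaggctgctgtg
Rpl36al, chr12:69184053-69184082, minus strand: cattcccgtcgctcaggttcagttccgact
Members that moved in the comparisons below stand on both sides of this division, with Rpl28 and Fau among those with a run and Rplp0 and Rps13 among those without.

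Together the 85 members took 5.06% to 9.59% of a library's UMIs. The summed share was 9.32%, 5.16%, 6.61% and 6.22% in female KO libraries 33, 16, 1 and 7, and 9.13%, 8.13%, 9.59% and 8.57% in female WT libraries 34, 39, 31 and 30. In males it was 5.06%, 5.61%, 5.56%, 5.88% and 5.17% in KO libraries 36, 6, 9, 17 and 40, and 5.57%, 5.48%, 5.91%, 6.34% and 6.44% in WT libraries 13, 37, 10, 11 and 14. Female WT stood highest and male KO lowest, while 1 female KO library, 33, lay inside the female WT range and the other 3 below it. Group means were 6.83% ± 1.77 (SD, n = 4) in female KO, 8.86% ± 0.64 (n = 4) in female WT, 5.46% ± 0.34 (n = 5) in male KO and 5.95% (n = 5) in male WT. The ratio of small-subunit to large-subunit UMIs was 0.785 to 0.839 over the 18 libraries, so the subunits kept nearly the same balance in all of them. The 294 listed ribosomal protein pseudogenes took 0.0402% to 0.222% of UMIs.

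**Figure D1:**
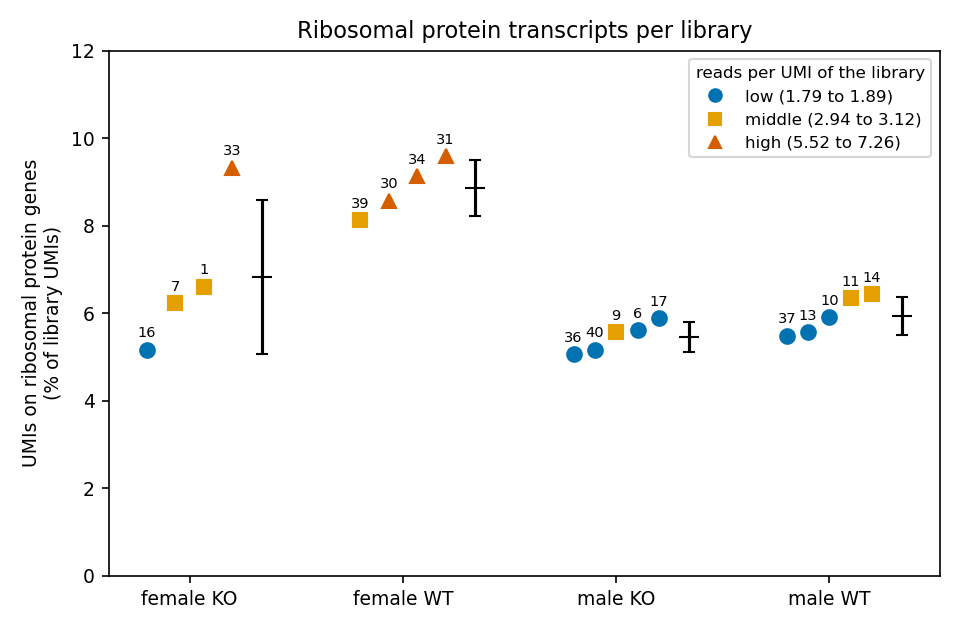
Summed share of UMIs on the 85 ribosomal protein genes (percent, y axis) by group (x axis), with a point per library shaped by its reads-per-UMI range, numbered by replicate, and the group mean with its SD as a bar. Female WT libraries lie at 8.13% to 9.59%, and female KO library 33 at 9.32% stands with them while the other 3 female KO libraries lie at 5.16% to 6.61%.

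The share moved with the number of reads sequenced per UMI, a measure of how often each tagged molecule was read. Libraries fell into 3 ranges of this ratio, at 1.79 to 1.89 (8 libraries, low), 2.94 to 3.12 (6 libraries, middle) and 5.52 to 7.26 (4 libraries, high). The low range held female KO 16, 4 male KO and 3 male WT libraries. The middle range held female KO 1 and 7, female WT 39, male KO 9 and male WT 11 and 14. The high range held female KO 33 and 3 female WT libraries, so no male library was in the high range and no female WT library in the low one. The mean share was 5.48% ± 0.33 (SD, n = 8) in the low range, 6.55% ± 0.85 (n = 6) in the middle range and 9.16% ± 0.43 (n = 4) in the high range. Since the libraries formed separate clusters, no correlation over them is given, and the groups compared differ in their make-up of ranges. Within the middle range female KO 1 and 7 had 6.61% and 6.22%, against 8.13% in female WT 39, and within the high range female KO 33 had 9.32%, against 8.57% to 9.59% in female WT. In males of the low range KO libraries had 5.06% to 5.88% and WT libraries 5.48% to 5.91%, and in the middle range KO 9 had 5.56%, against 6.34% and 6.44% in WT. Counted in reads rather than UMIs the mean share was 6.15% in female KO, 7.50% in female WT, 5.16% in male KO and 5.54% in male WT.

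**Figure D2:**
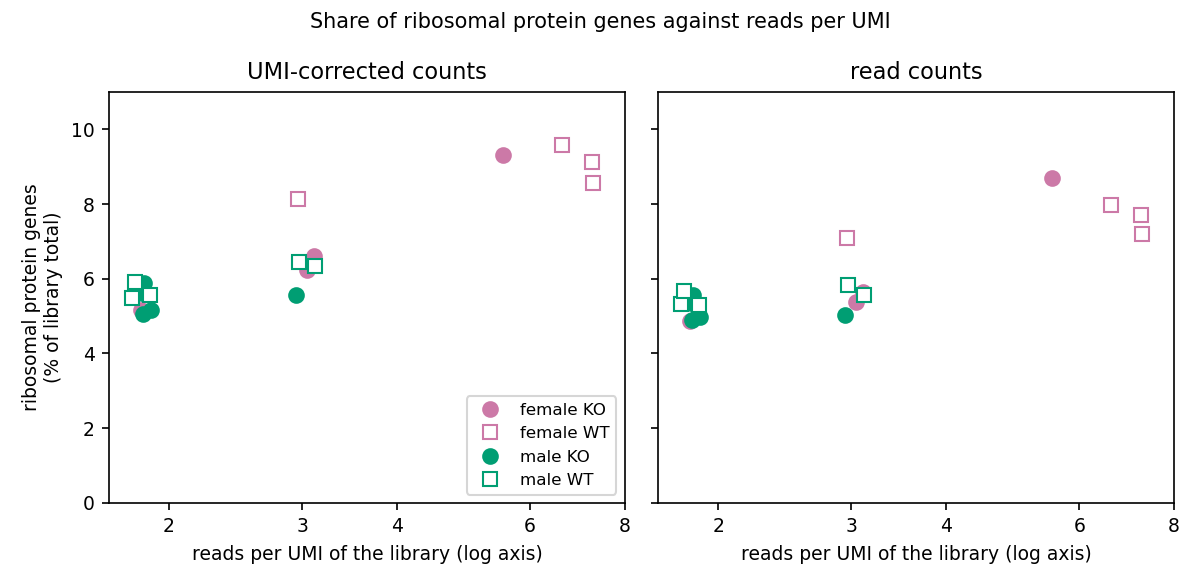
Summed share of the 85 genes (percent of the library total, y axis) against reads per UMI of each library (x axis, log scale), in UMIs (left) and in reads (right), with a point per library coloured by group. In UMIs the low range lies at shares near 5.48%, the middle range near 6.55% and the high range near 9.16%.

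In female microglia, KO against WT, 18 of the 83 members tested fell and none rose. The levels of 18 genes were lower by 0.49 to 0.96 on the log2 scale, 10 of them of the large subunit (of 50 tested) and 8 of the small subunit (of 33). Over all 10948 genes tested, 1.83% were called lower in the same contrast. The median log2 fold change was -0.48 over the 83 members, against 0.01 over all genes, and 10 members had a value above 0. Of the 83, 20 had all female KO libraries below all female WT libraries, against 2.84% of all genes, and none had the reverse. The untested members were Rpl10l, with 0 UMIs, and Rpl3l, with 9 UMIs in all libraries together.

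The stalk of the large subunit, which recruits elongation factors, is formed by Rplp0 with the paired Rplp1 and Rplp2. Rplp0 (ENSMUSG00000067274) had 970.1, 821, 817 and 769 CPM in female KO libraries 33, 16, 1 and 7, against 1247, 1423, 1361 and 1283 CPM in female WT libraries 34, 39, 31 and 30. The groups did not overlap, and the mean was 844 ± 87.2 CPM in KO and 1328 ± 78.9 CPM in WT (SD, n = 4 each). Its log2 fold change was -0.66 ± 0.12 (SE; edgeR quasi-likelihood test, adjusted p = 0.00809). Rplp1, the member with the most UMIs, had 5738, 3019, 3709.7 and 3221 CPM in the same KO libraries, against 5289, 5161, 5426 and 5376 CPM in WT. Here library 33 exceeded every WT library while the other 3 KO libraries were below all of them, and the log2 fold change of -0.44 ± 0.15 did not pass (adjusted p = 0.139). Rplp2 showed the same arrangement, with 4328 CPM in KO library 33 and 1377 to 1841 CPM in the other 3, against 2469 to 3187 CPM in WT, and a log2 fold change of -0.35 ± 0.25 (adjusted p = 0.545).

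Among small-subunit genes, Rps14, whose protein sits on the platform of the subunit, had 888, 1115, 1401 and 1125 CPM in female KO libraries 33, 16, 1 and 7, against 2223, 2203, 1623 and 1853 CPM in female WT. All KO libraries, 33 included, were below all WT libraries, with a log2 fold change of -0.80 ± 0.15 (adjusted p = 0.00809). Rps13 had 751, 591, 734 and 579 CPM in KO, against 1088, 1161, 1098 and 899.7 CPM in WT, a log2 fold change of -0.68 ± 0.13 (adjusted p = 0.00986). Every KO library was again below every WT library. Rps16, whose protein reaches the peptidyl site of the subunit, fell by 0.94 (adjusted p = 0.0145). Rps19, mutated in human Diamond-Blackfan anaemia, fell by 0.50 (adjusted p = 0.0302). Rps21 fell by 0.49 (adjusted p = 0.048).

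Rpsa and Fau are members with a second identity, since Rpsa is also known as the laminin receptor precursor and Fau encodes a fusion of a ubiquitin-like protein with a small-subunit protein. Rpsa had 1034, 731, 842 and 749.8 CPM in female KO, against 1299, 1324, 1072 and 1314 CPM in female WT, and its log2 fold change was -0.58 ± 0.13 (adjusted p = 0.0196). Fau had 1243, 697, 1261 and 956 CPM in KO, against 2217, 1448, 1348 and 1761 CPM in WT, and its log2 fold change was -0.71 ± 0.18 (adjusted p = 0.0372). Neither gene overlapped between the groups.

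Among large-subunit genes, Rpl28 had 798, 676, 802 and 706 CPM in female KO libraries 33, 16, 1 and 7, against 1485, 1190.1, 1214 and 1169.9 CPM in female WT, a log2 fold change of -0.76 ± 0.14 (adjusted p = 0.00842). Rpl19 had 515, 233, 381 and 319.9 CPM in KO, against 759, 632, 713 and 656 CPM in WT, and its log2 fold change of -0.96 ± 0.22 was the greatest fall among those called (adjusted p = 0.0224). The groups did not overlap for either gene. Rpl10, whose protein joins late in the maturation of the large subunit, fell by 0.81, as did Rpl29. Rpl41, a very short peptide at the interface of the subunits, had 1886, 838, 1119 and 979 CPM in KO, against 2299.5, 2099, 2007 and 2009.9 CPM in WT, with a log2 fold change of -0.82 ± 0.20 (adjusted p = 0.0319). The other called genes were Rpl37a, Rpl35, Rpl17 and Rpl10a, which fell by 0.59 to 0.67. A member with a greater estimate but few UMIs, Rpl24, had 0 to 3.68 CPM in KO and 5.42 to 9.6 CPM in WT and did not pass (log2 fold change -1.53 ± 0.45, adjusted p = 0.0728).

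The female count depended on single libraries and on the reads-per-UMI range. Without female KO 33 it was 53 of 83 lower (4.24% of all genes, median -0.70). Leaving out female KO 16 or 7 gave 5, female KO 1 gave 8, female WT 34 gave 11 and female WT 30 gave 6. The share of all genes is not given for those other omissions, so they show only how the count moved. With the range added to the fit as a factor, 6 members fell, Rps14, Rplp0, Rpl19, Rps13 and Rpl28 among them, against 0.539% of all genes, and the median was -0.20. Without the 4 high-range libraries, which leaves 1 female WT library assumed to vary like the other groups, 7 fell (0.662% of all genes; median -0.54). Rplp0, Rps14 and Rps13 passed in 30 of the 31 alternative fits and Rpl28 in 29, while Rpl35 passed in 15, Rpl17 in 13, Rpl10a in 11 and Rps21 in 6. No member passed when the female libraries were fitted alone. Chd8 itself passed in females in 3 of the 31 alternative fits, against 31 of 32 in males. With the range as a factor its female log2 fold change was -0.24 (edgeR quasi-likelihood test, adjusted p = 0.41). On read counts in place of UMIs 5 members fell, against 0.61% of all genes. Summed CPM of 8 neutrophil markers was 981 to 5273 in female KO and 2146 to 15573 in female WT, with 5 of the 8 called lower, none of them at 0 in either group. Summed CPM of 6 monocyte markers was 126 to 197 in female KO and 208 to 709 in female WT, with 4 of the 6 called lower. The part of these cells in the fall of ribosomal protein mRNA was not tested, and in bulk RNA fewer cells of a type and less RNA per cell cannot be told apart.

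In male microglia, KO against WT, 2 of 83 members fell and none rose, while 2.87% of all genes tested were called lower, so the members' share was near the background. The median log2 fold change was -0.18 over members and -0.01 over all genes, with 17 members above 0 and 15 at an unadjusted p under 0.05. The share of all genes at that unadjusted p is not given, so nothing is read from the 15. Rpl41 was one of the genes that fell. It had 668, 972, 946, 1053 and 631 CPM in male KO libraries 36, 6, 9, 17 and 40, against 1351, 1297, 1422, 1101 and 1361 CPM in male WT libraries 13, 37, 10, 11 and 14. The groups did not overlap, with a mean of 854 ± 191 CPM in KO and 1306 ± 123 CPM in WT (SD, n = 5 each) and a log2 fold change of -0.61 ± 0.18 (SE; edgeR quasi-likelihood test, adjusted p = 0.0382). It was the 1 member called in both sexes. In all, 5 of the 83 members had every male KO library below every male WT library, a share near the 4.58% of all genes. Rpl26, Rpl37, Rpl41 and Rps14 were among them.

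The male comparison could also be made within the low reads-per-UMI range, which held 4 KO and 3 WT libraries. There 5 members fell, a share near the 4.86% of all genes called lower, and Rpl35a rose, with a median of -0.09. Those that fell included Rpl39, Rpl41, Rpl8 and Rps15. With the range as a factor 3 fell (Rpl29 and Rpl41 among them), again near the 3.32% of all genes called lower, with a median of -0.11. The count was 0 on read counts (0.668% of all genes called lower), 0 without male KO 40 and 7 without female KO 33. Rpl41 passed in 22 of 32 alternative fits. Markers of other brain cells differed beside these values. For 8 oligodendrocyte-lineage markers the summed CPM lay at 243 to 832 in male KO libraries, against 101 to 155 in male WT. For 8 astrocyte markers it lay at 261 to 493 in male KO, against 135 to 182 in male WT. For 8 neuronal markers it lay at 44.6 to 194 in male KO, against 11.5 to 24.1 in male WT, and for 8 markers of border-associated macrophages at 157 to 251 in male KO, against 30.0 to 57.8 in male WT. Their part in the male values was not tested.

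**Figure D3:**
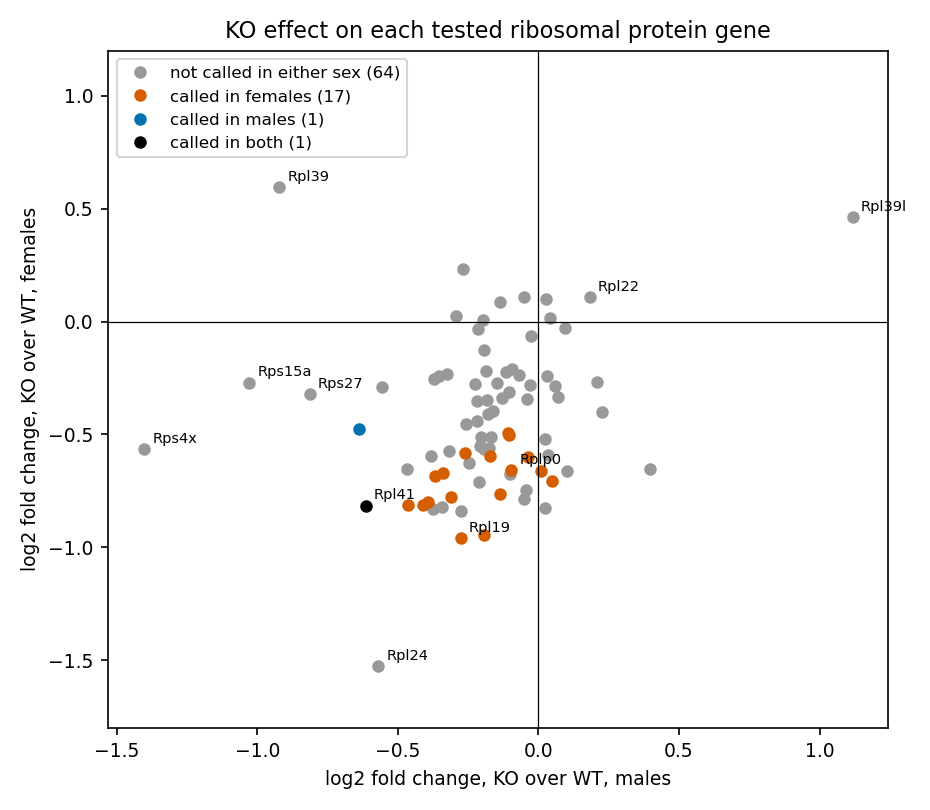
Log2 fold change of KO against WT for the 83 tested members in females (y axis) against males (x axis), with called members coloured. Most points lie below 0 on the female axis, where the median is -0.48, and nearer 0 on the male axis, where the median is -0.18.

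Averaged over both sexes with equal weight, KO against WT, 23 of 83 members fell (11 of the large and 12 of the small subunit) and none rose, against 5.13% of all genes called lower, with a median of -0.31. This mean contains the female contrast, and 15 of its 23 calls, or 65.2%, were also called in females. The members it added included Rps15, Rps3a1, Rps6, Rps7, Rpl24, Rpl6 and Rplp1, with log2 fold changes between -0.33 and -1.05. Rplp1 passed in 7 and Rpl6 in 12 of 30 alternative fits. Rps6, the main phosphorylated protein of the small subunit and a readout of mTOR signalling, had 214, 109.7, 184 and 213 CPM in female KO, against 134, 336, 398 and 362 CPM in female WT. In males Rps6 lay at 119.6 to 149 CPM in KO and 133 to 230.2 CPM in WT, and its mean log2 fold change was -0.60 ± 0.16 (adjusted p = 0.0204). With the range as a factor its adjusted p was 0.0668, and Rps3a1, Rps7, Rpl6 and Rplp1 also did not pass. That fit gave 16 members lower in the mean contrast (2.74% of all genes; median -0.15), and the fit without female KO 33 gave 54 (7.94% of all genes; median -0.45).

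The KO effect was not shown to differ between the sexes for any member. In the test of that difference, female minus male, 0 of 83 members passed (edgeR, smallest adjusted p = 0.211), against 0.237% of all genes in either direction. DESeq2 called 1 member. At an unadjusted p under 0.05 there were 19 members. The share of all genes at that threshold is not given, so nothing is read from the 19. The median difference was -0.30 over members and 0.01 over all genes. Fau had one of the wider gaps, with a log2 fold change of -0.71 in females and 0.05 in males, and the difference of -0.76 ± 0.24 did not pass (adjusted p = 0.298). Rpl30 had 651, 277, 582 and 573 CPM in female KO, against 775, 699.5, 1025 and 747 CPM in female WT, while in males KO libraries lay at 160.3 to 384 CPM and WT libraries at 169 to 306 CPM. Its difference was -1.05 ± 0.36 (adjusted p = 0.354).

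Between the sexes the members were lower in males. In WT, male against female, 58 of 83 members were lower (32 of the large and 26 of the small subunit) and none higher, against 10.3% of all genes called lower, with a median of -0.71 over members and -0.01 over all genes. In 61 members every male WT library was below every female WT library, against 9.41% of all genes. The 5 with the lowest p were Rpl30, Rpl17, Rpl35a, Rps28 and Rpl32. Rpl30, which in yeast also binds its own transcript, averaged 209 ± 57.0 CPM in male WT (n = 5) and 812 ± 146 CPM in female WT (SD, n = 4), a log2 fold change of -1.96 ± 0.26 (adjusted p = 3.38e-05). Rps28 averaged 554 ± 105 CPM in male WT and 1629.7 ± 228 CPM in female WT, a log2 fold change of -1.56 ± 0.26 (adjusted p = 0.000308). With the range as a factor Rpl30 (edgeR quasi-likelihood test, adjusted p = 0.0159) and Rpl17 (adjusted p = 0.0466) still passed. In that fit Rps28 (log2 fold change -0.88, adjusted p = 0.117), Rpl32 (adjusted p = 0.144) and Rpl35a (adjusted p = 0.171) did not.

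Among WT libraries the sexes shared only the middle range, with 2 male WT libraries and 1 female WT library in it. Among KO libraries they shared the low range, with 4 male and 1 female, and the middle range, with 1 male and 2 female. With the range as a factor the male-against-female contrast in WT gave 2 members lower and 1 higher (1.74% of all genes lower), with a median of -0.24, and on read counts it gave 25 lower and 2 higher (5.9% of all genes lower). All 8 neutrophil and all 6 monocyte markers were also called lower in male WT than in female WT, with neutrophil sums of 311 to 1145 CPM in male WT and 2146 to 15573 CPM in female WT. Of the 8 markers of border-associated macrophages 7 were called lower, with sums of 30.0 to 57.8 CPM in male WT and 136 to 299 CPM in female WT. The part of these cells was not tested. In KO, male against female, 15 members were lower (8 of the large and 7 of the small subunit) and none higher, against 4.27% of all genes, with a median of -0.36. There 7 members had every male library below every female library, against 4.53% of all genes. Among the 5 of lowest p were Rps15a, Rps24, Rps25 and Rpl36a, with log2 fold changes of -1.31 to -3.04. With the range as a factor 4 were lower (1.63% of all genes, median -0.07). The count was 6 without female KO 33 and 36 without female KO 16. The share of all genes is not given for these omissions, so they show only how the count moved. Beside these values 4 of 6 monocyte and 3 of 8 neutrophil markers were called lower in male KO, and 3 of 5 tested oligodendrocyte-lineage and 2 of 4 tested astrocyte markers were called higher. Neutrophil sums were 324 to 628 CPM in male KO and 981 to 5273 CPM in female KO, and oligodendrocyte-lineage sums were 243 to 832 CPM in male KO and 151 to 209 CPM in female KO. Their part was not tested.

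Fitted beside the 4 groups, the reads-per-UMI ranges separated the members directly. In the high against the low range 37 of 83 members were higher (24 of the large and 13 of the small subunit) and none lower, against 4.35% of all genes, with a median of 0.67 over members and -0.02 over all genes. In the middle against the low range 5 were higher (Rpl13, Rpl19, Rpl36al, Rpl15 and Rps10), against 0.265% of all genes, with a median of 0.24 and 81 of 83 members above 0. All 5 were also called in the high range. Only female KO holds both a low-range and a high-range library, so the high-against-low contrast leans on few libraries, and without female KO 33 it gave 6 members (0.689% of all genes; median 0.36). Rps10 had 314, 72.4, 117 and 113 CPM in female KO libraries 33, 16, 1 and 7, which are 1 high, 1 low and 2 middle libraries. In female WT it had 294, 284 and 259 CPM in the 3 high-range libraries and 148 CPM in library 39 of the middle range. Its log2 difference was 1.78 ± 0.20 for high against low (adjusted p = 2.26e-05) and 0.61 ± 0.12 for middle against low (adjusted p = 0.0364). Rpl36al, a copy of Rpl36a, had 257, 56.9, 130.3 and 117 CPM in the same KO libraries, and its log2 difference was 1.82 ± 0.22 for high against low (adjusted p = 4.52e-05).

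**Figure D4:**
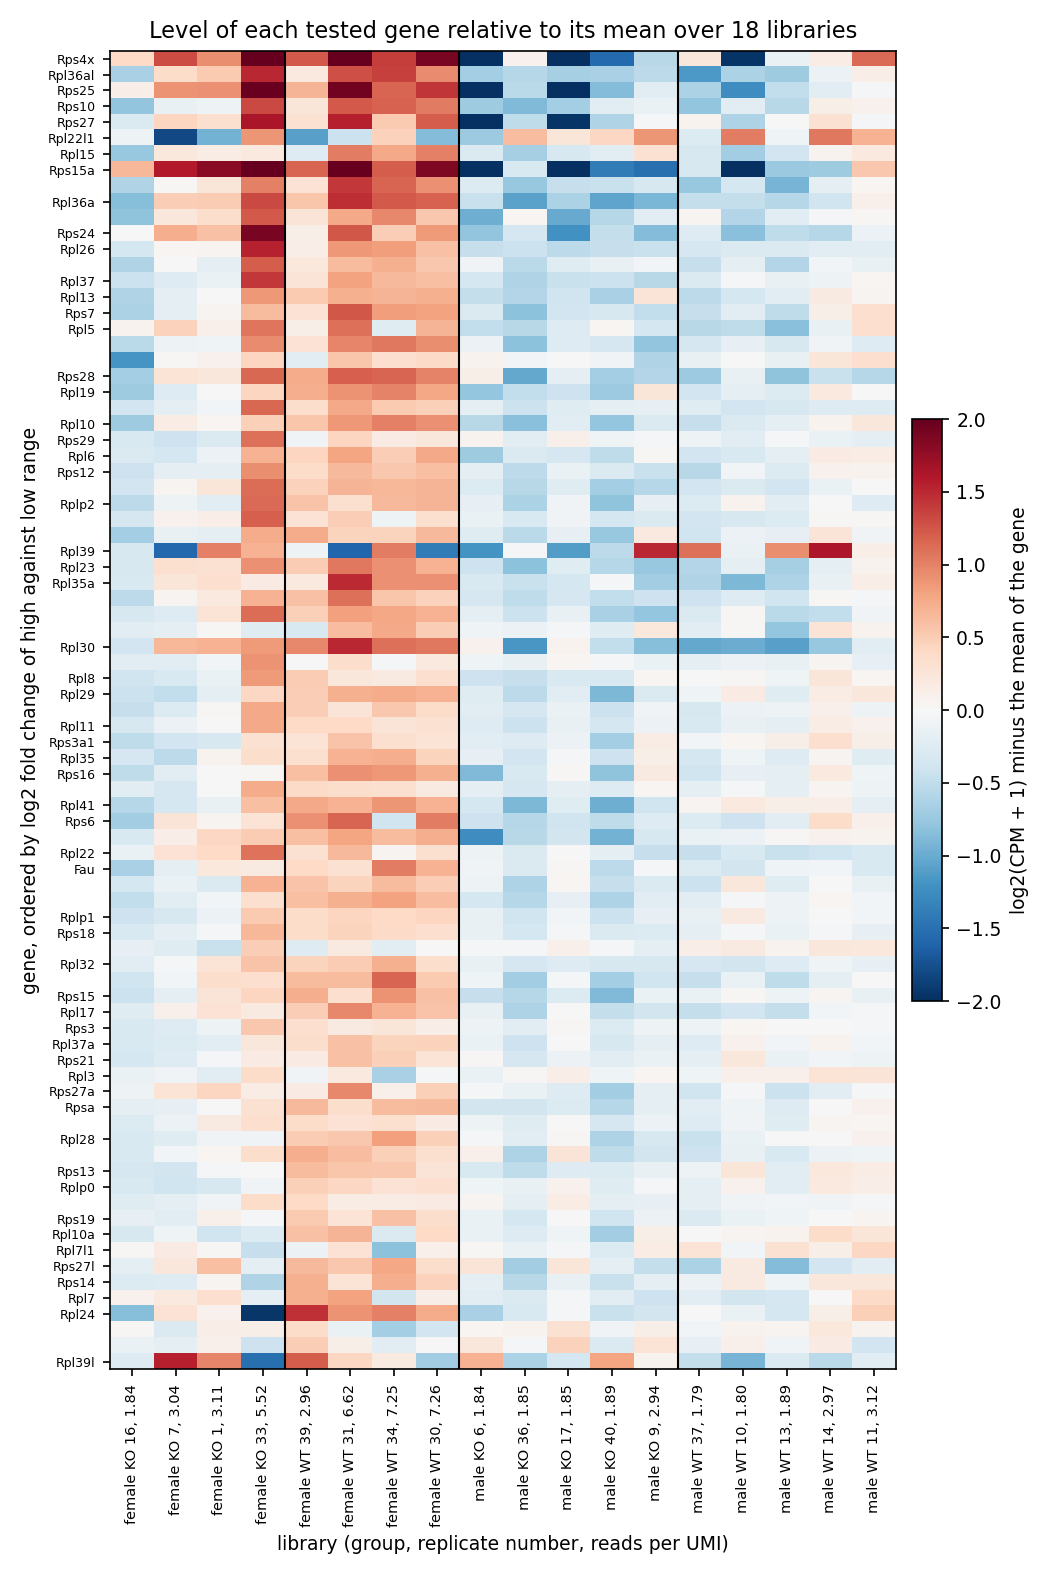
Level of each tested member (rows, ordered by the high-against-low difference) in each library (columns, by group and then by reads per UMI), shown as log2(CPM + 1) minus the mean of that gene over the libraries, with colours ending at 2 in either direction and names beside the rows described in the text. Columns of the high reads-per-UMI range carry the higher values for most rows. Of the 78 members with a mean of at least 50 CPM, 69 had their highest level in a high-range library.

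Among the 78 members with a mean of at least 50 CPM, 69 had their highest level in a high-range library. The highest level was in a female WT library for 47 and in female KO 33 for 30, and the lowest was in a male KO library for 50. These counts were not made over all genes, so they do not show what is particular to the members. The members also differed among themselves in how often each of their UMIs was read. Relative to the ratio of the library, reads per UMI had a median of 0.84 over the tested members, and 68 of the 83 were below 1, against a median of 0.92 and 75.3% below 1 over all genes tested. The lowest were Rps10 at 0.40, Rpl36al at 0.43 and Rps6 at 0.47, and the highest were Rps18 at 1.26 and Rps3 at 1.18. Rps10 gave 1.13, 1.18 and 1.29 reads per UMI in the low, middle and high ranges, so its UMIs were read hardly more than once even where the library average was 5.52 to 7.26. Rps18 gave 2.26, 3.96 and 9.74 reads per UMI in the same ranges. Across the 83 members, which share libraries and are not independent, Spearman's rho between this relative ratio and the high-against-low difference was -0.32 as a description. Both quantities are computed from the same UMI counts, so a negative rho is partly built in and no conclusion is drawn from it.

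The annotated 3' UTR is short in this family, with a median of 84 bases over 83 members, 47 of them under 100 bases, against 962 bases over 9936 other genes. The high-against-low difference had a median of 0.67 in the 47 members with a short 3' UTR and 0.67 in the other 36. Among other genes it was 0.19 for the 464 with a 3' UTR under 100 bases and -0.06 for the rest.

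A few members varied between libraries of the same group far more than the family did. Among genes with a mean of at least 50 CPM, the SD of log2(CPM + 1) within groups had a median of 0.30 over the 78 members and 0.22 over all 3727 genes. Rps4x, the X-linked small-subunit gene, had an SD of 1.42 and ranked 7 among those 3727 genes. It had 785, 226, 325 and 423 CPM in female KO libraries 33, 16, 1 and 7, and 448, 400.2, 1010.5 and 640.3 CPM in female WT libraries 34, 39, 31 and 30. In males it had 181, 5.47, 116, 6.45 and 57.4 CPM in KO libraries 36, 6, 9, 17 and 40, against 155, 201, 43.0, 377 and 189.7 CPM in WT libraries 13, 37, 10, 11 and 14. The span from lowest to highest library was 185-fold, and the lowest values stand on 15 and 21 UMIs. No KO contrast passed for it (male log2 fold change -1.40 ± 0.62, adjusted p = 0.224).

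Rps15a, a small-subunit gene on chromosome 7, had 43.9, 5.47, 18.4, 6.45 and 20.1 CPM in the male KO libraries in the same order, against 32.3, 43.6, 9.01, 79.9 and 32.8 CPM in male WT. In females it had 239, 86.7, 193 and 165 CPM in KO and 128, 123, 318 and 201 CPM in WT, all above every male library. Rps25, which is dispensable for general translation in yeast and human cells but needed by some viral start sites, had 159, 54.0, 199.6, 31.0 and 126 CPM in male KO, against 164, 148, 97.1, 224 and 198 CPM in male WT. Rps27, a zinc-finger protein of the small subunit, had 385, 110.5, 543, 140.0 and 359.9 CPM in male KO, against 549, 579, 356, 535 and 678 CPM in male WT. These 3 genes ranked 21, 42 and 48 by within-group SD, and their spans were 58.1-fold, 29.4-fold and 15.4-fold. All 4 genes were lowest in male KO 6 and 17, and male WT 10 was the lowest of its group for each. None of the 4 passed in a KO contrast.

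**Figure D5:**
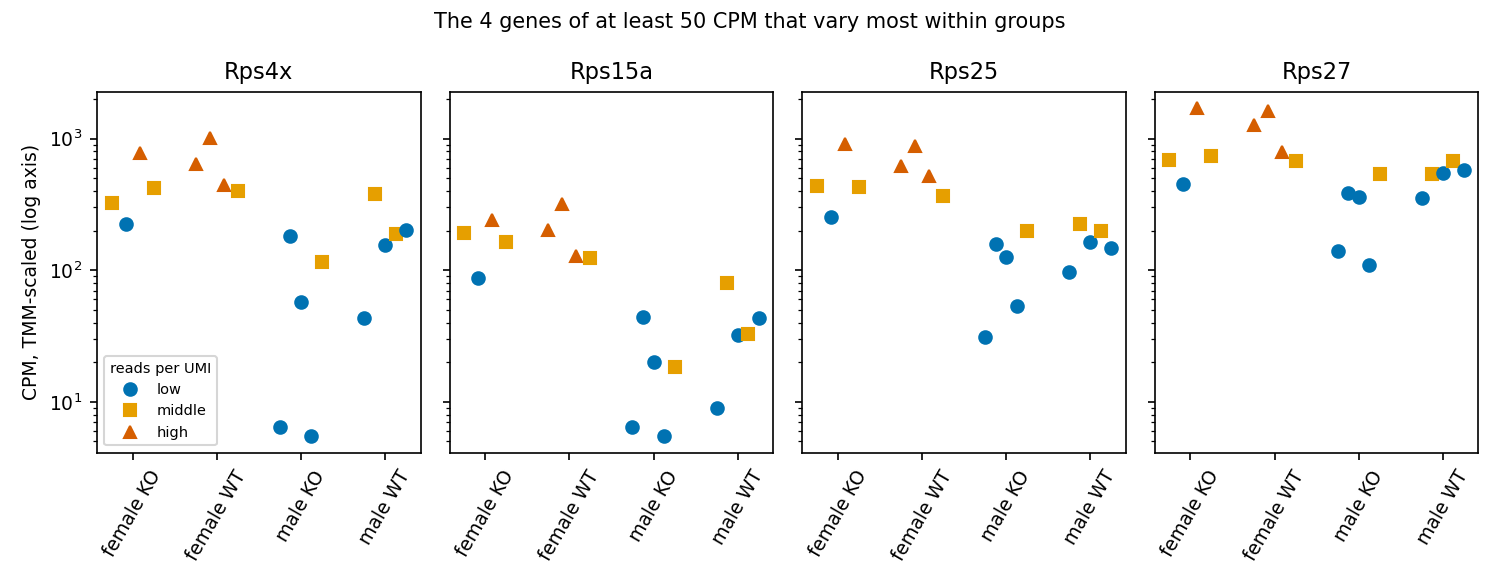
CPM (log scale, y axis) of Rps4x, Rps15a, Rps25 and Rps27 in each library (x axis, by group), with a point per library whose shape and colour give its reads-per-UMI range. The 2 lowest male KO points of each panel are libraries 6 and 17, at 5.47 and 6.45 CPM for Rps4x.

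Where copies are near-identical they can share or split 3' tags. How far this holds for each of the following pairs was not tested, so their values are uncertain to that extent. The annotated Rps4l, which is named after Rps4 but not protein-coding in this release, lay at 45.3 to 78.4 CPM over all libraries, a range much narrower than that of Rps4x. Rps27rt, named as a retrogene of Rps27 and outside the symbol rule, reached 87.5 CPM in female KO 33. Rps27l, whose transcription p53 is known to raise, had 77.2, 78.0, 134 and 103 CPM in female KO, against 152, 139, 129 and 113 CPM in female WT, and did not pass (log2 fold change -0.40 ± 0.24, adjusted p = 0.437). Rpl22, mutated in some human leukaemias, averaged 693 ± 258 CPM in female KO and 631 ± 111 CPM in female WT, and in males its libraries lay at 359 to 494 CPM in KO and 360.3 to 403 CPM in WT. Its copy Rpl22l1, which Rpl22 is known to repress, lay at 1.54 to 17.5 CPM. Neither Rpl22 nor Rpl22l1 passed in a KO contrast.

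Rpl36a had 507, 112, 286 and 284 CPM in female KO, against 472, 297, 564 and 457 CPM in female WT (log2 fold change -0.66 ± 0.29, adjusted p = 0.269), and its copy Rpl36al had a log2 fold change of -0.51 ± 0.32 (adjusted p = 0.482). Rpl39 lay at 3.93 to 44.6 CPM with log2 fold changes of 0.59 in females and -0.92 in males, and the testis-known copy Rpl39l at 0 to 7.37 CPM with 0.46 and 1.12, none of which passed. Rpl3 averaged 582 ± 115 CPM in female KO and 539.9 ± 125 CPM in female WT, while its muscle copy Rpl3l was near 0. Rpl7 and Rpl7l1 had female log2 fold changes of -0.27 and 0.02 and did not pass. Of Rpl10 and Rpl10l, the testis copy Rpl10l was not detected, with 0 UMIs in all libraries.

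Rpl5, Rpl11 and Rpl23 bind Mdm2 when ribosome assembly is disturbed and so connect it to p53. Rpl11 had 1781, 846, 1055 and 974 CPM in female KO, against 1269.6, 1397, 1396 and 1308 CPM in female WT (log2 fold change -0.22 ± 0.17, adjusted p = 0.591). Rpl5 and Rpl23 had female log2 fold changes of -0.06 and -0.45 and male ones of -0.03 and -0.26, and none passed. Rps27a, which is made as a fusion with ubiquitin, had log2 fold changes of -0.28 in females and -0.03 in males and did not pass. The 4 members with the highest mean CPM, a count of 3' tags and not a level per length, were Rplp1, Rps29, Rps12 and Rplp2. Of these Rps29 lay nearest to no change, with 5674 CPM in female KO 33 and 1969.9 to 2153 CPM in the other female KO libraries, against 2505 to 3537 CPM in female WT (log2 fold change -0.03 ± 0.23, adjusted p = 0.983).

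Other genes of the pathway were counted in the same fits. Rack1, a protein of the small subunit outside the symbol rule, had 901, 980.4, 850.3 and 908 CPM in female KO libraries 33, 16, 1 and 7, against 1144, 1585, 1232 and 1135 CPM in female WT. In males it had 990.1, 921, 896, 979 and 931 CPM in KO, against 1137, 1243, 1267, 1149 and 1224 CPM in WT. The groups did not overlap in either sex, library 33 included, and Rack1 fell by 0.49 in females (adjusted p = 0.0236) and by 0.35 in males (adjusted p = 0.034). Of 25 other mRNAs with a terminal oligopyrimidine tract, a list that includes Rack1, 4 fell in females (Rack1, Tpt1, Vim and Eif3f), against 1.83% of all genes called lower. In males 2 of them fell (Eef1g and Rack1), against 2.87% of all genes, and none of the 25 rose in either sex. Their median log2 fold change was -0.16 in females and -0.14 in males, where that of the cytosolic ribosomal proteins was -0.48 and -0.18.

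Of 93 tested genes of ribosome biogenesis and RNA polymerase I, 1 rose in females (Polr1e, by 1.08) and none fell, while in males 1 fell (Rrp1b, by 0.76) and none rose. Of 43 tested translation factors, 1 fell in females (Eif3f) and 1 in males (Eef1g). Of 26 regulators of ribosome production, which include Myc, the mTOR pathway and p53, none passed in either sex, and in the mean of both sexes Trp53 fell by 0.43. Of 75 mitochondrial ribosomal proteins, which build the separate ribosome of mitochondria, none passed in females, and in males Mrpl17 rose and Mrpl51 fell. The median log2 fold change of the biogenesis list was 0.04 in females and -0.03 in males. Over all genes tested, 1.83% were called lower in females, 2.87% in males and 5.13% in the mean of both sexes. In either direction, 293 of 10948 genes were called in females and 683 in males. In each sex the few calls in the lists of this paragraph are therefore near or below the background. In the mean of both sexes 4 of 43 translation factors fell (Eef1g, Eif3f, Eef1a1 and Eif1) and none rose, a share above the 5.13%. Of the biogenesis list 4 of 93 fell and 2 rose, and of the mitochondrial list 3 of 75 fell and 3 rose. Of the 25 other mRNAs with a terminal oligopyrimidine tract 6 fell in that mean, Eef1g, Eif3f and Eef1a1 among them. Differences between these lists were not tested.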

How the data were processed

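Purified brain microglia of Chd8 KO and WT mice of both sexes gave 18 libraries, grouped by their titles. The authors' deposited tables hold unscaled counts for each gene, of reads in one and of UMIs in the other. Per the submitters' processing notes cutadapt, STAR and HTSeq were used with build mm10, while their versions, the annotation release, the strand setting and the handling of UMIs were not stated. Each table holds 34 columns, and 16 of them, with no matching sample here, were left unused. Symbols for 52081 identifiers came from GENCODE M21 (GRCm38).

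UMI counts of the 10948 genes that passed edgeR's filterByExpr by group were scaled by TMM and fitted in edgeR 4.0.16 (R 4.3.3) with 1 mean per group over all 18 libraries and the quasi-likelihood test, with Benjamini-Hochberg adjustment over all genes and a call at an adjusted p under 0.05. Reads-per-UMI contrasts added the range to the groups. CPM of single genes was TMM-scaled, and shares and marker sums used the library total. The fit was tested on simulated data. Depth was 435838 to 9149144 UMIs per library, and its precision covers counting error only. Library pairs within a group differed beyond sampling noise (chi-square per degree of freedom 2.92 to 14.0 over 32 pairs), so none was merged. The alternatives tried were read counts, DESeq2 1.42.0, other scalings and filters, groups fitted alone, the range or log2 total in the fit, and each library left out. Fits without the 2 libraries under 500000 UMIs and without the 4 high-range libraries were chosen after seeing the data.

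Members and lists were chosen with earlier results of these data known. Genes named were members called in a KO contrast, the 5 members with the largest and the 5 with the smallest log2 fold change in each sex, the 5 of highest mean CPM, paralog pairs, members of known role, the 5 of lowest p in sex and range contrasts, Chd8, Rack1 and called genes of other lists. Some genes that this rule names are not reported here. The variable genes were named by within-group SD after their values were seen. Libraries 33 and 34 are the shallowest, and a few UMIs decide the lowest values.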

Additional observations from a re-analysis of the deposited data

Results flagged for a closer look

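In 256 sets, each a gene or measure in a group, the highest or lowest library was compared with the rest by Dixon's gap. Of these, 19 sets had a library standing apart, where chance gives about 1 in 20 for independent sets. The sets share the same 18 libraries and are not independent, so no conclusion is drawn from the number of flags.

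Female KO 33, one of the shallowest libraries and the 1 female KO library of the high reads-per-UMI range, stood above the other female KO libraries in 7 genes. Rps29 had 5674 CPM there (nearest library 2153 CPM), Rplp2 4328 CPM (nearest 1841 CPM), Rps12 3674 CPM (nearest 1698 CPM) and Rpl26 2679 CPM (nearest 964 CPM). Rpl36 had 1456 CPM there (nearest 819 CPM), Rpl37a 1219.7 CPM (nearest 893 CPM) and Rpl6 546 CPM (nearest 309.5 CPM). Male KO 9 was the 1 male KO library of the middle range. It stood above its group in the members' reads per UMI, at 2.66 (nearest 1.82), which its range implies. It also stood above its group in Rpl13 at 831 CPM, Rpl19 at 452 CPM and Rpl39 at 41.3 CPM.

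The other sets were of single libraries. Rpl15 was lowest in female KO 16, the 1 low-range library of that group, at 23.6 CPM. In female WT, Rpl28 was highest in library 34 at 1485 CPM, Rps3a1 was highest in library 31 at 1092 CPM and Rpsa was lowest in library 31 at 1072 CPM. In male WT, Rpl36a was highest in library 11 at 216 CPM and Rps21 in library 10 at 1707 CPM. Rpl3l was at 0 in all but 1 library of male KO (0.365 CPM in library 6) and of male WT (0.336 CPM in library 13), where each value rests on 1 UMI.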

How the results depend on the processing

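No gene checked turned its direction in the alternatives run. The check covered Chd8, the members called in KO contrasts, and the 5 of lowest p in each sex and range contrast. Some alternatives called members higher where the main fit called none. These were Rpl35a for KO in males of the low range, and members in male against female WT with the range as a factor or on read counts. Counts of members called moved with the setting, and unless a value above shows it the cause was not tested. Here and below, a count without the share of all genes shows only how the number moved. It does not show whether the members exceeded the background in that setting. KO against WT in females (18 called) gave 5 on read counts, 31 with no filter, 0 with the female groups fitted alone, 6 with the range of reads per UMI in the fit, 47 without the 2 libraries under 500000 UMIs and 7 without the 4 high-range libraries. In males (2 called) it gave 0 on read counts, 4 with DESeq2, 1 with RLE scaling, 9 with no filter, 1 with a floor of 10 CPM in 4 libraries, 10 with the male groups fitted alone, 6 in the low range alone, and 7 without the 2 shallow or the 4 high-range libraries. The mean of both sexes (23) gave 7 on read counts and 48 without the shallow libraries. The difference between sexes (0) gave 1 with DESeq2, 3 with no filter and 1 without the shallow libraries.

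Male against female in WT (58) gave 27 on read counts, 3 with the range as a factor, 28 with the log2 total as a covariate and 9 without the high-range libraries. In KO (15) it gave 7 on read counts, 27 with no filter, 5 with the 2 groups alone, 4 with the range, 6 with the log2 total, 6 without the shallow and 8 without the high-range libraries. Middle against low range (5) gave 0 on read counts, 8 with DESeq2, 3 with library totals alone and 18 with no filter, and high against low (37) gave 5 without the shallow libraries. The mean summed share of female WT (8.86%) was 7.50% in reads and 10.6% with the 20 most abundant other genes left out of the total, which gave 6.50% in male KO and 7.16% in male WT.

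Leaving out each library in turn gave 5 to 53 calls in females, 0 to 7 in males, 18 to 54 in the mean, 0 to 1 in the difference, 43 to 67 for sex in WT, 6 to 36 for sex in KO, 0 to 6 for middle against low (0 without female KO 16) and 6 to 46 for high against low. No paired analysis was possible because no replicate number occurs in more than 1 group. The lowest values, such as those of Rpl24 and Rpl39l, rest on few UMIs per library. Rpl24 was also low in the deepest library, at 1.83 CPM in male KO 40 with 9149144 UMIs. Why it was so low was not tested.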
